A study of Drosophila melanogaster with 3 samples.

Results

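Distal intergenic peaks are the places where a map of M1BP binding put the protein far from the start of any protein-coding gene and outside all protein-coding genes. They were taken from a chromatin immunoprecipitation sequencing (ChIP-seq) data set of whole Drosophila melanogaster embryos, mixed in sex and aged 0 to 24 h. The flies were a transgenic line, stably expressing CG9797 (the gene also called M1BP) with green fluorescent protein (GFP) at its C-terminus. The labels do not say which promoter drives the fusion or whether the untagged gene is present. The 3 biological replicates form the 1 group of the study, so no condition was compared. Whole embryos of this age span mix all tissues and stages. The labels conflict on the libraries: 1 free-text entry names them input control, while the assay title, the antibody entry (CG9797) and a separate control experiment describe immunoprecipitated material, and they were analysed as such.

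The peaks were chosen by 3 values: a pooled −log10 q-value of at least 2, a summit over 1000 bp from every protein-coding start site, and a summit inside no protein-coding gene (Ensembl BDGP6.54, dm6 coordinates). Of 30000 entries in the pooled list of all 3 replicates, 5808 had that q-value (19.4%), and 246 of these were distal intergenic (4.24%, 95% Wilson interval 3.75% to 4.78%). Such intervals cover counting error only, and peaks are not biological replicates. The same rule on each replicate's own list kept 654 of 8577 peaks in replicate 1 (7.63%), 61 of 3063 in replicate 2 (1.99%) and 62 of 3520 in replicate 3 (1.76%), a mean of 3.79% ± 3.32 (SD, n = 3). The single lists thus differed mainly by replicate 1. Of the peaks kept in replicates 1, 2 and 3, 35.2%, 85.2% and 82.3% lay within 100 bp of 1 of the 246, so these lists are not the same peaks. The files hold no read counts, so depth is unknown. For comparison, 464 called peaks lay over 1000 bp from a start site but inside a gene (distal genic peaks) and 4620 lay within 250 bp of a start site (promoter peaks). The remaining 478 lay over 250 and up to 1000 bp from one (flanking peaks).

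M1BP is a zinc-finger protein that binds Motif 1, a DNA element common in the core promoters of broadly expressed Drosophila genes, where RNA polymerase II pauses shortly after initiation. Most of what is known of it concerns such promoters. Peaks away from them can mark promoters of genes that make no protein, such as long noncoding RNAs and microRNA precursors, or regulatory elements such as enhancers and insulators, which separate neighbouring regulatory domains.

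The Motif 1 core, GGTCACACT, was searched on both strands of the 201 bp centred on each summit and occurred in 7 of the 246 windows. The 8 matches are shown because they are the sequences the tagged factor is known to read. Each is written 5′ to 3′ on the strand that carries the core, with 12 bases on each side, from the NCBI Release 6 genome (dm6), the core in capitals.
near CG31680 (chr2L:20638668-20638700, minus strand): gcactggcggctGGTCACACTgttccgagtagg
near CG10651 (chr2L:20148484-20148516, plus strand): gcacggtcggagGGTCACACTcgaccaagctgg
at roX2 (chrX:11579064-11579096, plus strand): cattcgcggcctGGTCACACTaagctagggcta
between slp1 and slp2, left match (chr2L:3832484-3832516, plus strand): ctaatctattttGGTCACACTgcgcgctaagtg
between slp1 and slp2, right match (chr2L:3832519-3832551, plus strand): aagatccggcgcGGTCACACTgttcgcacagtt
at CR43334 (chr3L:628538-628570, plus strand): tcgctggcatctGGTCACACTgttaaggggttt
near zfh1 (chr3R:30789393-30789425, minus strand): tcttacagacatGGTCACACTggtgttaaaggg
near bap (chr3R:21386349-21386381, plus strand): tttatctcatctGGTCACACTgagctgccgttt

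Of these 7 peaks, 6 also held the longer Motif 1 consensus, and the peak near CG10651 held the core alone. The centre of the core nearest the summit lay 17 to 21 bp from it in 5 of the 7, 37 bp from it at roX2 and 56 bp at CR43334. The median distance was 18 bp, and 5 of 7 were within 25 bp. In promoter peaks with the core the median was 30 bp, and 294 of 653 were within 25 bp (45.0%). Each member's window comes from 1 locus, and 7 windows are few.

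The whole windows of 201 bp, on the plus strand, show the sequence around the summits of the 5 strongest members with the core, in capitals, and of 1 without it.
near CG31680 (chr2L:20638566-20638766): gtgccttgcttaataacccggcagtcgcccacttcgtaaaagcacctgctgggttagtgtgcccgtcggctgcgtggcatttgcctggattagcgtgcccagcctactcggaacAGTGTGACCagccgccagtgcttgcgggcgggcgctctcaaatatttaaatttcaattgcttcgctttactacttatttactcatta
near CG10651 (chr2L:20148417-20148617): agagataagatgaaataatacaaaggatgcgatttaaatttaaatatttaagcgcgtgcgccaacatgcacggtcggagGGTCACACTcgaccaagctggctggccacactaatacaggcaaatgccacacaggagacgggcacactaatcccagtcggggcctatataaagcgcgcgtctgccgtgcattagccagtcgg
at roX2 (chrX:11578943-11579143): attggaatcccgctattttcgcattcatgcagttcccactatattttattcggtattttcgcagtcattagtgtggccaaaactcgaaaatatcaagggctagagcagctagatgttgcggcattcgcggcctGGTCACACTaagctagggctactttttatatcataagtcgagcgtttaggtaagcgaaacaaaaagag
between slp1 and slp2 (chr2L:3832417-3832617): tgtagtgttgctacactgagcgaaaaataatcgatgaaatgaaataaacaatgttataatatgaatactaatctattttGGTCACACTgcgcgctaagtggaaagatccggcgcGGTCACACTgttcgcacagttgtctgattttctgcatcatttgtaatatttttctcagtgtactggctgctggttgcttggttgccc
at CR43334 (chr3L:628398-628598): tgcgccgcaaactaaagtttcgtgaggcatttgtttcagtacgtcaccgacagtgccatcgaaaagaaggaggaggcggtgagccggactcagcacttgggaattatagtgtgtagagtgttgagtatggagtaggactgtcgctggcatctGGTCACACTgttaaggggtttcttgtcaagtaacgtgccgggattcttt
at CR31044 (chr3R:29214340-29214540): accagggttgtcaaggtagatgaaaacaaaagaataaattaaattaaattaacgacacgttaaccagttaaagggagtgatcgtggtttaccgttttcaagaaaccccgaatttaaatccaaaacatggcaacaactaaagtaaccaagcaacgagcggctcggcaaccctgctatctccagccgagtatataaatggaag
The window at CR31044 holds no core: its closest stretch differs from it at 3 of 9 bases. It is shown because the peak sits at a noncoding gene start and is among the 10 strongest.

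The distal intergenic peaks spanned signal values of 200.3 to 1884 with a median of 276. The signal value is the authors' peak score, its scale is not given, and it also set the choice of peaks, so these values only describe them. Distal genic peaks had a median of 273 and promoter peaks of 502. Of the 246, 140 were also in the authors' list filtered by irreproducible discovery rate, called the thresholded list here (56.9%, interval 50.7% to 62.9%). The shares were 54.5% of distal genic peaks, 84.2% of promoter peaks and 79.2% of all called peaks. The thresholded members had a median signal value of 330 and the other 106 of 225. The thresholded were exactly the 140 strongest, down to 263, and the strongest of the other 106 had 259. Among members, being thresholded thus says no more than a cut on signal value. Each of the 125 members at the ceiling of the q-value was thresholded.

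The summits lay 1029 to 59916 bp from the nearest protein-coding start site, with a median of 4672 bp. There were 61 within 2000 bp and 65 beyond 10000 bp. Arm 2L held 58, 2R 46, 3L 75, 3R 40, chromosome 4 2 and X 25. Sequence that meets the position rule makes up 28.3% of these arms, and per Mb of it there were 6.50 members in all, 8.27 on 2L, 8.08 on 3L, 7.33 on chromosome 4, 6.13 on 2R, 5.09 on 3R and 4.21 on X. Chromosome 4 rests on 2 peaks. Within 250 bp of each other lay 15 pairs of members, 199 to 225 bp apart, and in all 15 the left summit was the stronger. Merging called summits within 250 bp left 231 members.

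**Figure D1:**
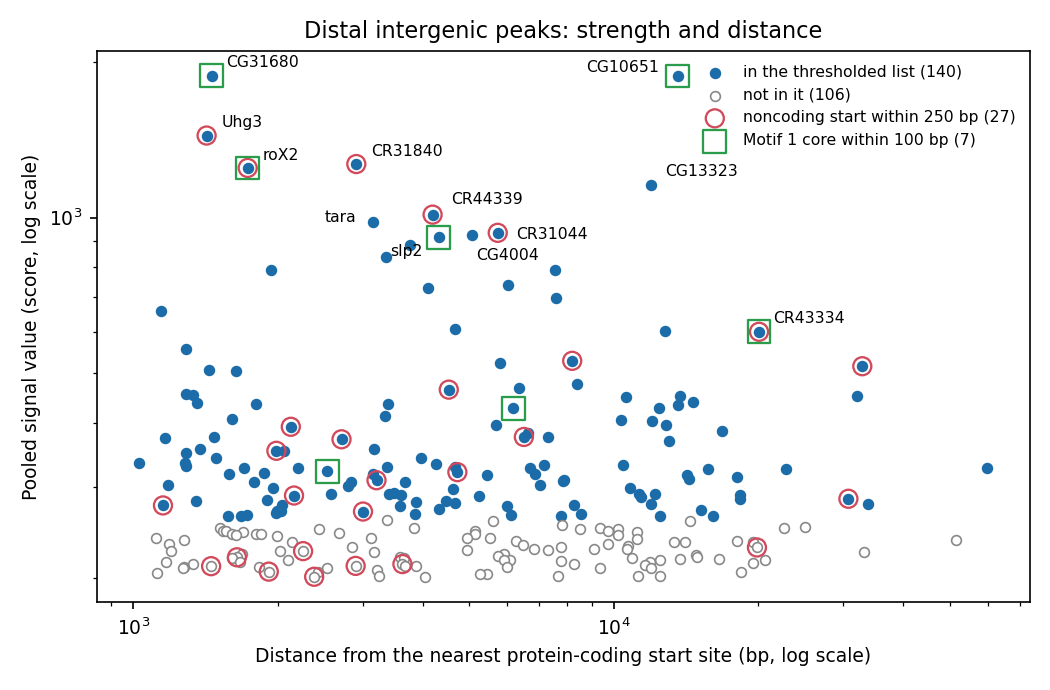
Pooled signal value (score, log scale) of each of the 246 distal intergenic peaks against the distance of its summit from the nearest protein-coding start site (bp, log scale). Filled points are the 140 thresholded peaks and open points the other 106, red circles mark 27 peaks within 250 bp of a noncoding gene start and green squares 7 with the Motif 1 core. Peaks at noncoding starts appear at both ends of the signal range, while all 7 with the core are thresholded, that is, among the 140 strongest.

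Of the 10 strongest members, 5 lay within 250 bp of the start of a noncoding gene and 3 held the Motif 1 core. The strongest lay at chr2L:20638473-20638878, with a signal value of 1884, 1455 bp from the start of CG31680 and 349 bp from that of a pseudogene, CR43158. It ranked 320, 134 and 571 among the entries of replicates 1, 2 and 3. The second, with 1882, lay at chr2L:20148316-20148709, 13594 bp from CG10651 and 1073 bp from the start of an annotated transposable element, and ranked 242, 181 and 548. Both ranked in the strongest 600 of every replicate, and each holds the core 17 or 18 bp from its summit.

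Next came the start of Uhg3, a host gene from whose introns small nucleolar RNAs are cut (chr2L:20647300-20647634, signal value 1443). The annotation places 3 snoRNAs named snoRNA:Me28S-C2645 in it, of a class that guides methylation of 28S ribosomal RNA. Its summit was 41 bp from the start and ranked 670, 596 and 305. It lay 8.83 kb from the strongest member, with CG31680, Sfp38D, CG17470, phr6-4 and CG2608 between them. The fourth, with 1270.1, was 8 bp from a start of CR31840, a long noncoding RNA gene of unstated role, 2910 bp from the start of hll (chr2L:14023919-14024251; ranks 762, 566 and 1301). A second member, with 371, lay 199 bp to its right.

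The fifth was at roX2, which encodes a noncoding RNA of the dosage compensation complex that raises transcription of the male X chromosome (chrX:11578871-11579204, signal value 1248). The summit lay 22 bp upstream of the roX2 start, 237 bp past the end of CG11695, and ranked 1004, 553 and 771. The core lies 37 bp to the right of the summit, on the plus strand like roX2, inside the first bases of the annotated gene. It is the nearest member to nod, a kinesin-like gene 1729 bp away, which has a called promoter peak of its own.

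Of the other 5 of the 10 strongest, 3 were missing from at least 1 replicate. A peak near CG13323 on 2R (1158; ranks 627 and 1193) had no summit within 100 bp in replicate 3. Another, 4195 bp from the Polycomb group gene Psc and 178 bp from the noncoding gene CR44339 on 2R (1013), ranked 896 in replicate 1 and had none within 100 bp in the others. The peak 3151 bp from tara, a gene of the trithorax group, reached 979 (chr3R:16222351-16222647) and ranked 1057, 692 and 4366. The peak at CR31044 (934; chr3R:29214280-29214596) ranked 1098, 1512 and 1482. The last (924; chrX:12751199-12751577), 5056 bp from CG4004 and inside the noncoding gene Vinr, ranked 464 and 1278 in replicates 1 and 3, and the nearest summit of replicate 2 was 463 bp away. Its window had a GC content of 24.9%, against 39.8% for the median member.

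**Figure D2:**
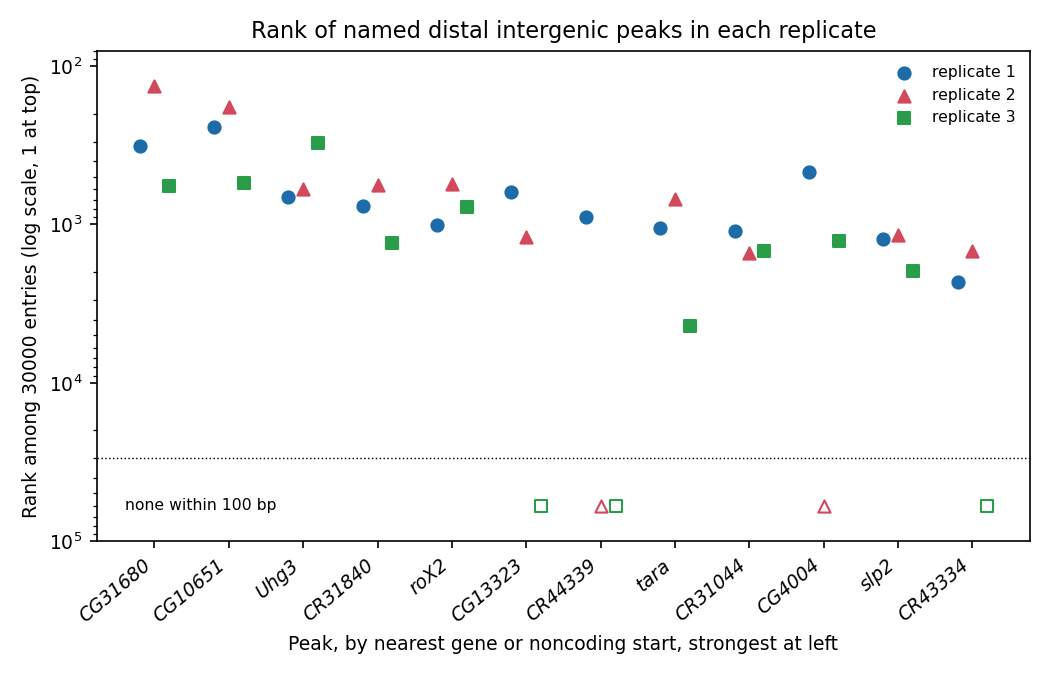
Rank of 12 named distal intergenic peaks among the 30000 entries of each replicate (log scale, rank 1 at the top), with peaks ordered from the strongest pooled signal at left. Open symbols below the dotted line mark replicates with no summit within 100 bp. The first 5 peaks ranked in the strongest 1301 of every replicate, whereas those near CG13323, CR44339, CG4004 and CR43334 were missing from at least 1.

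Start sites of genes that make no protein were not part of the rule. Of the 246 members, 27 lay within 250 bp of one (11.0%, interval 7.65% to 15.5%). Of these 27, 19 were thresholded, as were 140 of all 246 members. The share at such a start was 2.80% of distal genic peaks (13 of 464), 5.65% of flanking peaks (27 of 478) and 2.92% of promoter peaks (135 of 4620). It was 3.48% of all called peaks, and 5.47% of the 4718 entries in the same kind of position with a −log10 q-value under 2. Of the sequence that meets the position rule, 5.21% lies this near such a start. The nearest start belonged to an ncRNA gene in 22 of the 27, a tRNA gene in 1 and an annotated transposable element in 4. Without transposable elements the share was 9.76% (24 of 246), beside 2.59% of distal genic peaks, 4.20% of the weaker entries and 2.11% of the sequence. That setting was added after the data were seen.

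On each replicate's own list the share was 10.1%, 21.3% and 11.3% in replicates 1, 2 and 3, a mean of 14.2% ± 6.16, against 2.90% ± 0.734 for distal genic peaks and 2.92% ± 0.136 for promoter peaks (SD, n = 3). It was higher in 3 of 3 replicates in both comparisons, by 11.3 ± 6.28 and 11.3 ± 6.21 percentage points. How much sequence lies this near such a start was computed for distal intergenic sequence only. These differences are therefore not set against the annotation around distal genic and promoter peaks. The exact paired sign-flip test, two-sided, gave p = 0.25 each time (Benjamini-Hochberg adjusted p = 0.5 over 8 tests). With 3 replicates 0.25 is the smallest p that the test can give, so no difference here could pass 0.05. Members at such starts had a median signal value of 321 and the others of 269.9, and 11 of the 27 (40.7%) and 93 of the other 219 (42.5%) had a summit in all 3 replicates.

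Among microRNA precursors, CR43334 is the transcript that holds mir-ban (bantam), a microRNA that promotes growth and blocks cell death. Its member (chr3L:628240-628755, signal value 600.2) lay 28 bp from the nearest of its start sites, 13.7 kb from mir-ban, and ranked 2296 and 1479 in replicates 1 and 2. Replicate 3 had no summit within 100 bp, its nearest being 308 bp away. The core in the window above lies 56 bp to the right of this summit. CR31044 holds mir-279 and mir-996, related microRNAs known from olfactory neuron development. Its summit lay 122 bp upstream of the start, 1.15 kb from mir-279 and 2.74 kb from mir-996, in a window without the core. The nearest protein-coding start, that of the translation elongation factor gene eEF1gamma, was 5732 bp away and had its own promoter peak.

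**Figure D3:**
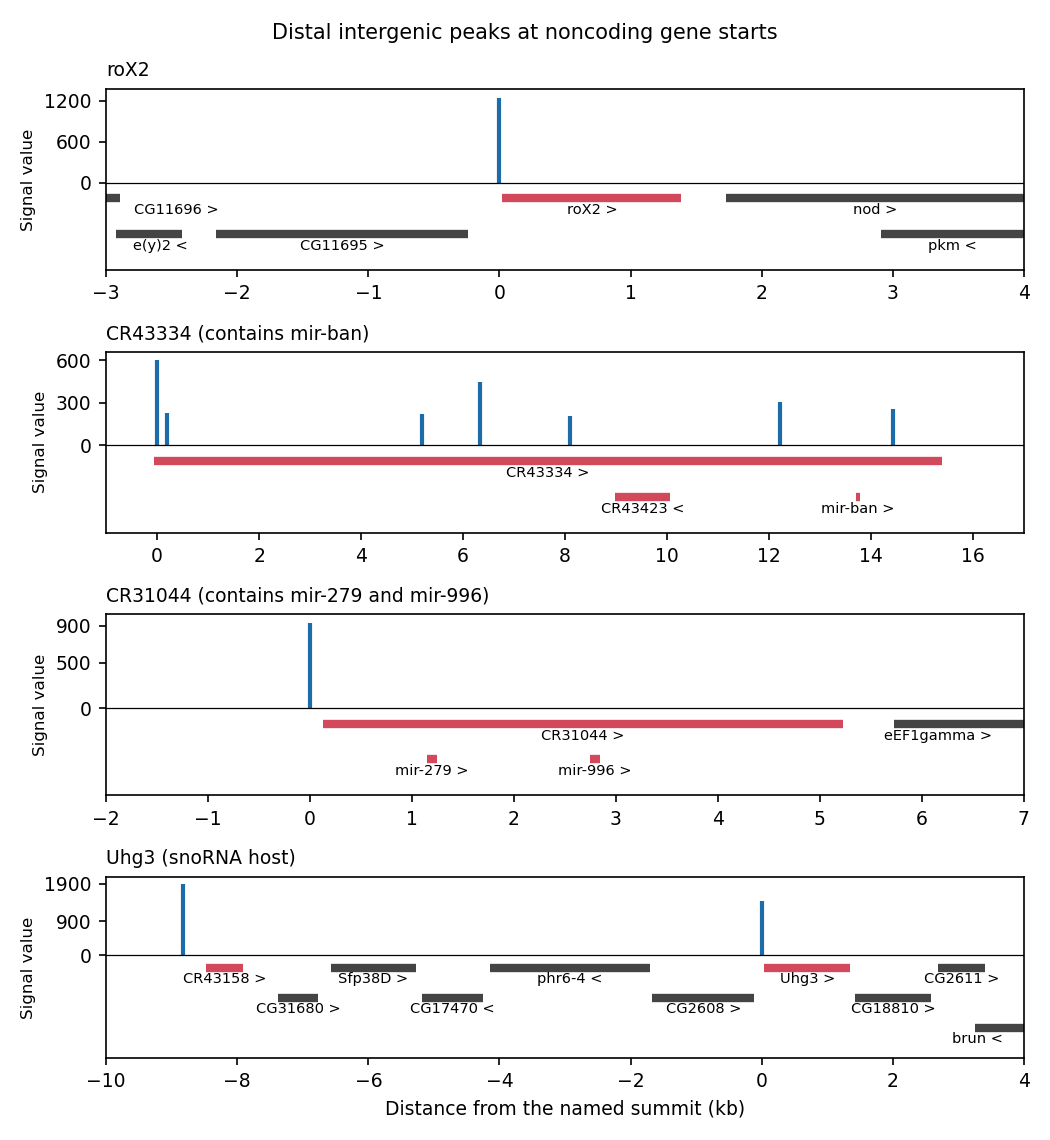
Distal intergenic peaks (blue lines, height is the pooled signal value) around 4 noncoding gene starts, by distance from the named summit in kb, with annotated genes below (red noncoding or pseudogene, grey protein-coding, arrowheads give the strand; snoRNAs, mature microRNAs and transposable elements are not drawn). Promoter and genic peaks are not drawn. At roX2, CR31044 and Uhg3 the summit stands 22 to 122 bp before the start, and CR43334 carries 7 members along its length.

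The other 4 of the 10 strongest members at noncoding starts were weaker. An Rt1b transposable element on 3L had 527 at 38 bp from its start (ranks 2944 and 1235, none in replicate 3). CR45588 on 3R had 515 at 73 bp, 32901 bp from the protein-coding gene corto (ranks 3266, 1356 and 3755). CR44810 on 2R, 4533 bp from slbo, had 464 (ranks 2562, 3238 and 3894). Its summit lay inside the annotated gene, 161 bp from an internal start site. An HMS-Beagle element on X, 2126 bp from Tsp3A, had 393 at 113 bp and was missing from replicate 2. Reads from transposable elements can be hard to place. In all 246 windows every run of 50 bases occurred once in the genome, a measure not set against read length. Of runs of 36 bases in the HMS-Beagle window, 86.7% did, and that window is made up of near-copies of a short unit in tandem. How reads were placed there was not tested. A window counted as repeated sequence if under 50% of its runs of 50 bases occurred once. A count of 0 windows in repeated sequence allows a share of up to 1.54% (Wilson interval). On the replicates' own lists, 2 of the 654 members of replicate 1 (0.306%) and none of the others were in repeated sequence, and no distal genic or promoter peak was (exact sign-flip p = 1). Soft-masked bases made up a median of 14.7% of a window, and over 50% in 10 windows (4.07%).

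Some of these genes also held members along their bodies: 38 members lay in a noncoding gene (15.4%), against 10.9% of the weaker entries, 2 lay in a transposable element and 206 in neither. CR43334 held the most, 7 over its 15.5 kb, of which 3 were thresholded. With 1 further summit to the left they formed the largest group of neighbouring members, 8 summits over 31.1 kb of 3L, each at most 20 kb from the next. Signal values in this group ran from 203 to 600.2. All 8 had a summit within 100 bp in replicate 1, 7 in replicate 2 and 3 in replicate 3, background entries included. The 3 thresholded members had −log10 q-values of 3.56, 1.19 and 0.51 in replicate 2, from the strongest down. In replicate 3 the strongest had no entry, and the other thresholded members had 0.64 and 0.49.

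The 246 members formed 167 such groups, 123 of them a single peak. The second largest had 6 summits over 16.5 kb near CG7560 on 3L, with signal values of 229 to 382. The next had 5 over 16.8 kb, 1606 to 18374 bp from the start of chinmo, a BTB zinc-finger gene that sets neuronal temporal identity. Its signal values were 205 to 427, and 2 were thresholded. Replicates 1, 2 and 3 had 5, 3 and 1 of the summits, background entries included. Another 5, with a weaker strongest peak of 341, lay by Hacd1 and Rh5. At tara, 4 summits over 2.71 kb had 979, 658, 266 and 225, and each had an entry within 100 bp in every replicate's list, background entries included. Their −log10 q-values in replicate 3 were 1.08, 3.70, 3.03 and 0.096, and those in replicate 2 were 3.56, 1.74, 1.47 and 1.44. At a limit of 2 none of the 4 was called in both. This group was picked after its values were seen.

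The peak with 2 cores (916; chr2L:3832381-3832664; ranks 1238, 1169 and 1955) lay between slp1 and slp2, neighbouring forkhead genes of the segmentation cascade, 4323 bp from the slp2 start. Its cores stand 17 bp to the left and 18 bp to the right of the summit, on the same strand. The remaining members with the core were near zfh1, a zinc-finger homeodomain gene (426; 6172 bp; ranks 2497, 12584 and 2084), and bap, a homeobox gene of the visceral mesoderm (322; 2533 bp; ranks 3008 and 2724, none in replicate 2). These last were beyond the 5 strongest and are named because there were only 7.

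The core was found in 2.85% of members (7 of 246, interval 1.39% to 5.76%). All 7 were thresholded, thus among the 140 strongest members, where the share was 5.00%. The core occurred in 0.862% of distal genic peaks (4 of 464), 3.35% of flanking peaks (16 of 478), 14.1% of promoter peaks (653 of 4620) and 11.7% of all called peaks. It was in 0.318% of the weaker entries in the same kind of position, and in 0.0976% of all 185382 windows of the same length cut from such sequence. On each replicate's own list members had it in 1.68% (11 of 654), 6.56% (4 of 61) and 11.3% (7 of 62). The mean was 6.51% ± 4.80, against 16.5% ± 4.02 of promoter peaks and 0.914% ± 0.926 of distal genic peaks (SD, n = 3). The difference was -9.996 ± 2.35 percentage points from promoter peaks, lower in 3 of 3 replicates, and 5.60 ± 4.40 from distal genic peaks, higher in 3 of 3. Exact sign-flip tests gave p = 0.25 for both (adjusted p = 0.5), again the smallest possible. With up to 1 mismatch the share was 8.13% of members, 4.96% of distal genic peaks, 32.5% of promoter peaks and 2.76% of the weaker entries.

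Among the 15 motifs searched were those of insulator proteins. That of dCTCF, AGNNGGCGC, occurred in 17 windows (6.91%), against 3.23% of distal genic peaks, 2.53% of promoter peaks, 2.82% of the weaker entries and 1.29% of all windows of distal intergenic sequence. Per replicate list the shares were 5.05%, 9.84% and 4.84% in members, 3.16%, 10.9% and 1.85% in distal genic peaks, and 2.46%, 3.72% and 2.16% in promoter peaks, so replicate 2 reversed the order between members and distal genic peaks. None of the 17 was within 250 bp of a noncoding start, where 11.0% of all members lay. Signal values of the 17 ran from 209 to 839, and 11 were thresholded, beside 56.9% of all members. Examples are given with 12 bases on each side and the match in capitals, on the strand that carries it; CHES-1-like had 2 matches and soti 3, of which 1 each is shown.
near CG15452 (chrX:20760524-20760556, plus strand): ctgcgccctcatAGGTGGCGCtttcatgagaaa
near zfh1 (chr3R:30789469-30789501, plus strand): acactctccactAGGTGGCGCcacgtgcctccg
near CHES-1-like (chrX:7710954-7710986, plus strand): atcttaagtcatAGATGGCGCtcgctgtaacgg
near soti (chr3R:14391374-14391406, minus strand): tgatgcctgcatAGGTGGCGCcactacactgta
in bxd (chr3R:16748719-16748751, plus strand): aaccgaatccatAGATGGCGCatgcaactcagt

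The zfh1 window carried this match, the Motif 1 core and at least 2 CGATA sites, the arrangement counted here for the insulator protein BEAF-32. Pairs of CGATA were in 16 members (6.50%), 4.09% of distal genic peaks, 28.7% of promoter peaks and 3.00% of the background windows. Matches on both strands counted, so a single TATCGATA, the DRE given below, was enough to make a pair. TATCGATA was in 0.813% of members and 12.2% of promoter peaks. The Su(Hw) motif GCATACTTT, of a further insulator protein, was in 5 members (2.03%), 0.862% of distal genic peaks, 0.216% of promoter peaks and 0.526% of background windows. The match in bxd lies in a noncoding gene of the bithorax complex, which holds the homeotic genes Ubx, abd-A and Abd-B. That complex had 3 members, picked after their values were seen, all between Ubx and abd-A. Of these, 2 were in bxd (218 and 209). The other, outside bxd and with a Su(Hw) match (449, ranks 3873, 1650 and 4023), was the only thresholded one of the 3. Glut3 was the nearest protein-coding gene to it and to the bxd member with 218.

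For the DNA replication-related element (DRE) and Motif 7, other promoter elements, the shares of members stood closer to background windows than to promoter peaks. The DRE, TATCGATA, was in 0.813% of members, 0.647% of distal genic peaks, 12.2% of promoter peaks and 0.426% of background windows. Motif 7 was in 2.85%, 2.59%, 12.5% and 1.58% in the same order, and TATAAA in 26.4%, 31.0%, 27.3% and 23.0%. The E-box CAGCTG was in 4.88% of members, 8.62% of distal genic peaks, 16.8% of promoter peaks and 6.96% of background windows. GAGAGAG, the site of GAGA factor, was in 4.07%, 6.90%, 2.32% and 2.21% of the same classes. The initiator TCAGTT was in 13.0% of members, and the motifs of Zelda, ZIPIC, the TFIIIC B box and Motif 6 were each in at most 2 of the 246. A match is a run of letters, not a shown binding site, and these shares were not tested.

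**Figure D4:**
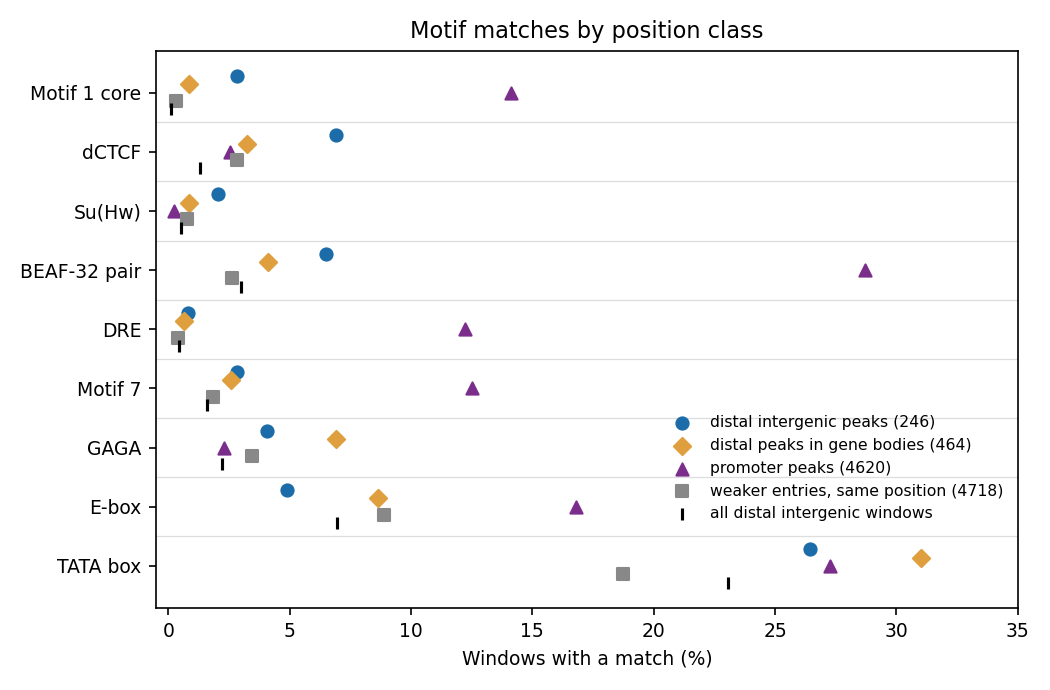
Share of 201-bp windows with a match to each of 9 motifs (%), for distal intergenic peaks (circles), distal peaks in gene bodies (diamonds), promoter peaks (triangles), entries of the same position with a −log10 q-value under 2 (squares) and all windows cut from distal intergenic sequence (bars). For the Motif 1 core, members stand at 2.85%, between 0.862% for distal genic and 14.1% for promoter peaks, and for dCTCF they stand highest at 6.91%. Flanking peaks are not drawn (3.35% with the core).

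The members had 179 different nearest protein-coding genes, of which 40 (22.3%, interval 16.9% to 29.0%) had a called promoter peak. Of all 13945 genes, 4830 did (34.6%), but these were not limited to genes beside sequence that meets the position rule. The median member lay 22639.5 bp from the nearest called promoter peak, and 36 lay within 5 kb of one. The comparison with all genes was not tested.

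Replicates differed in which members they held. A summit within 100 bp was present for 237 members in replicate 1 (96.3%), 150 in replicate 2 (61.0%) and 175 in replicate 3 (71.1%), against 95.6%, 67.6% and 81.5% of all called peaks. All 3 replicates had it for 104 members (42.3%, interval 36.3% to 48.5%), beside 37.3% of distal genic peaks, 57.5% of promoter peaks and 53.6% of all called peaks. Any of a replicate's 30000 entries counted here, background included. When each replicate's own entry needed a −log10 q-value of at least 2, the share in all 3 was 5.69%. Without that limit, another 110 members were found in 2 replicates, 30 in 1 and 2 in none. The pooled list was called from the same 3 alignments, so these shares describe the lists and were not tested. Rank correlation of signal values between the lists (Spearman's rho) came to 0.548 over 172 members found in replicates 1 and 3, to 0.270 over 106 found in 2 and 3, and to 0.208 over 144 found in 1 and 2. These points share their libraries and are given as a description.

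Presence in replicate 2 moved with GC content in members, distal genic and promoter peaks alike. The median GC content of peaks found and not found there was 42.3% and 35.6% for members, 41.8% and 34.3% for distal genic peaks, and 41.3% and 33.8% for promoter peaks. Members were split into 4 GC classes of similar size. In the class lowest in GC (median 30.8%, 57 members) replicate 2 had a summit within 100 bp of 21.1%, while replicates 1 and 3 had 98.2% and 82.5%. In the highest class (median 48.3%, 64 members) the shares were 82.8% in replicate 2, 93.8% in replicate 1 and 54.7% in replicate 3. Within 250 bp replicate 2 had 56.1% and 90.6% of the lowest and highest classes, so part of the summits missing at 100 bp had one farther off. Members called from replicate 2 alone had a median GC content of 46.3%, against 36.3% from replicate 1 and 34.3% from replicate 3. Over the 3 lists members averaged 39.0% ± 6.40, against 39.6% ± 6.18 for distal genic and 39.3% ± 3.95 for promoter peaks (SD, n = 3; exact sign-flip p = 0.5 and 1). Without replicate 2, 172 members (69.9%) had a summit in both remaining lists, of which 8.72% were at noncoding starts and 3.49% held the core.

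**Figure D5:**
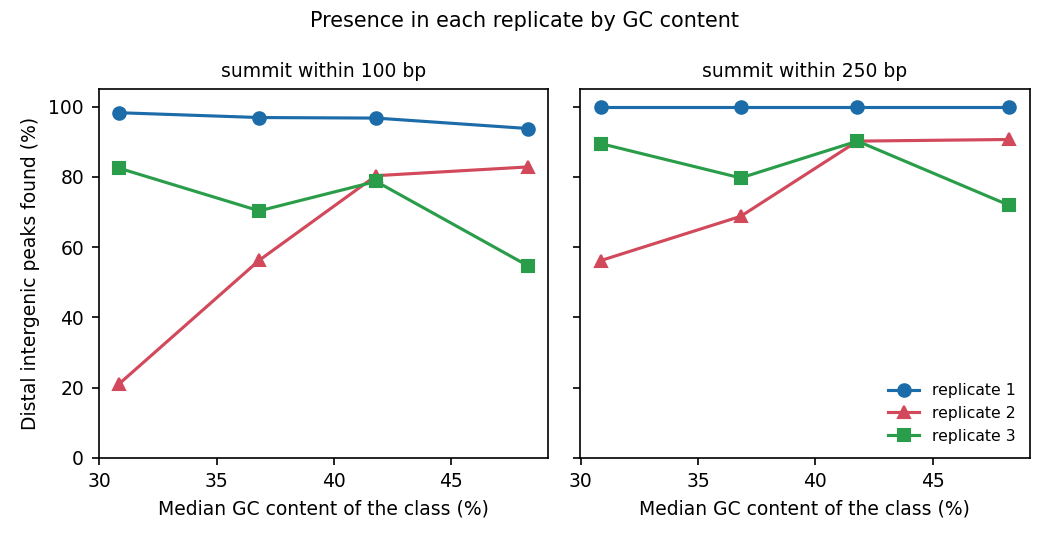
Share of distal intergenic peaks (%) with a summit within 100 bp (left) or 250 bp (right) in replicates 1, 2 and 3, by 4 classes of GC content of the 201-bp window, placed at each class's median GC content (%). Replicate 2 runs from 21.1% to 82.8% at 100 bp and from 56.1% to 90.6% at 250 bp, while replicate 1 stays above 93%.

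The 5 strongest members outside the thresholded list included those near CG17350 (259), CG11726 (257), sob (254) and CG5214 (251). All 5 had a summit within 100 bp in replicate 1, 4 in replicate 2 and 4 in replicate 3, background entries included. In replicate 3 the −log10 q-values of those named were 1.24, 0.057, 1.22 and 0.60, all under the limit of 2. In replicate 2 they were 0.35 near CG17350, 2.04 near CG11726 and 1.19 near CG5214, with no entry near sob. Just inside the q-value limit were members near Act57B (2.0043), CG7707 (2.0113) and CG33648 (2.0262). Just outside it were entries near mtSSB (1.9765), E(spl)m3-HLH (1.9763) and L (1.9762). Just inside the distance limit were members 1029 bp from CG43131, 1115 bp from CG32812 and 1118 bp from nrv1, and just outside it were peaks 998 bp from CG9498, 990 bp from CG7824 and 977 bp from CG7881.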

How the data were processed

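Peak lists on dm6 were used as deposited. Per the deposited notes, the authors called each replicate's list from its own alignment with 1 common control file, called the pooled list from the 3 alignments with the same control, and derived the thresholded list from these 4. The deposited signal value is a peak score from the authors' caller, and the deposited −log10 q-value stops at a ceiling of 3.95 in the pooled list. Aligner, caller and versions: not given in the sources used here.

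Summit positions were joined to Ensembl release 115 start sites (19252 of 13945 protein-coding genes) and to the NCBI Release 6 genome, in which 99.8% of 30618 annotated start codons read ATG. Python 3.11.15 with pandas 2.3.3 and scipy 1.17.1 was used, and the steps were tested on simulated data. Motif, GC and uniqueness measures came from 100 bp on each side of a summit. A peak was matched to any of a replicate's entries within 100 bp, background included. Weaker entries are those with a −log10 q-value under 2. Replicates' own lists (−log10 q-value of at least 2) gave means and SDs, and exact sign-flip tests. Members, motifs and comparisons were chosen with earlier results of these data known. Named were the 10 strongest members, the 10 strongest within 250 bp of a noncoding start, the 5 strongest with the Motif 1 core, the 5 strongest outside the thresholded list, those nearest each limit, and the 3 largest groups. A miRNA table was not used here, and 1 member named by this rule and 1 sequence are not reported here.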

Additional observations from a re-analysis of the deposited data

How the results depend on the processing

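The count of 246 distal intergenic peaks was 141 at a −log10 q-value of at least 3 and 106 to 172 when each replicate was left out and a summit was required in both others. At that q-value 99.3% were thresholded. The share found in all 3 replicates was 62.2% with summits up to 250 bp apart, 70.3% with 1 bp of interval overlap, 5.69% when each replicate's own entry needed a −log10 q-value of at least 2, and 43.1% to 69.9% without 1 replicate. The share with the Motif 1 core was 8.13% with up to 1 mismatch. The share at a noncoding start was 26.4% within 1000 bp and 5.69% within 100 bp. Windows in repeated sequence were 4.07% by soft-masking. The cause was not tested for any of these. Counting neighbours once gave 231 members, requiring over 500 or 2000 bp to a start site 283 or 185, and keeping out all annotated genes 165, or 172 with transposable elements allowed, a setting added after seeing the data. A planned q-value limit of 5 gave no value, since the ceiling lies below it. Of 41 alternatives, 29 stayed within the replicate spread or within 1.5 times the count. That spread was wide. For the core share of 2.85% the SD was 4.80, so no lower share could have left it. For the share at noncoding starts it was 6.16, so 5.69% counted as unchanged beside 11.0%. The tally is therefore no measure of robustness. Unknown depth limits what a missing summit in a replicate can show.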
